A study of Equus caballus with 45 samples.

Results

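The chondrocytes of the series were compared after treatment with medium conditioned by activated or by resting mesenchymal stromal cells (MSC). The comparison holds 6 of the 45 libraries of the series, and its members were chosen by label: 3 libraries of chondrocytes given conditioned medium of MSC activated through Toll-like receptor 3 (TLR-MSC-CM) and 3 given medium of resting MSC (resting MSC-CM). The libraries were paired by the name that the labels give as their cell line (AG1, ORC or PC), called the line below. Equine bone marrow MSC were either left untreated or stimulated for 2 h with polyinosinic:polycytidylic acid (poly I:C), a double-stranded RNA mimic that binds TLR3. Their medium was then collected at 24 h. The agonist dose is 10 μg/mL in the study's design text and 10 ng/mL in the sample labels, and this disagreement was not resolved. All 6 chondrocyte cultures were first stimulated with IL-1β and TNF-α at 20 ng/mL and washed. They then received MSC-CM for 24 h, were washed again and were cultured for a further 24 h before RNA was collected. By the study's methods the MSC came from 3 horses and the chondrocytes from femoropatellar cartilage of 1 healthy horse, expanded in culture. The labels do not say whether a line name stands for the horse of the MSC. They also put ORC on the chondrocytes that received no MSC-CM, and only PC among the names recurs on the MSC libraries. The medium, the culture and the cells of a line therefore cannot be told apart. The 3 chondrocyte libraries with medium of MSC given a STING agonist (STING-MSC-CM) entered the same fit, so that they contributed to the estimate of the spread. Chondrocytes with the cytokines only and with no addition were sequenced once each and are given as single values.

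Chondrocytes are the resident cells of articular cartilage and hold its matrix of type II collagen and aggrecan. IL-1β and TNF-α act on them through NF-kB, which raises chemokines, prostaglandin synthesis and matrix-degrading proteases and lowers matrix synthesis. Activation of TLR3 in MSC leads to secretion of type I interferon and of chemokines, and interferon in medium is read by the receiving cell through its interferon receptors, which switch on interferon-stimulated genes. The comparison therefore asks which genes of cytokine-treated chondrocytes differ when the MSC that conditioned the medium had met a TLR3 agonist.

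Between 25193501 and 54103873 counts per library were assigned to protein coding genes in the 6 libraries. A count of 3, taken as the floor of the measurement, equalled 0.0554 to 0.119 CPM (read counts scaled to a common library total) depending on the library, and this floor covers counting error only. Between 15.7% and 18.8% of the counts lay on the 10 genes with the most reads. Markers of differentiated cartilage were mixed. COL2A1, the type II collagen that defines hyaline cartilage, did not exceed 0.382 CPM in any of the 6 libraries. ACAN, the gene of aggrecan, was between 7.03 and 21.8 CPM, and SOX9, the transcription factor that drives the cartilage program, was between 7.49 and 70.2 CPM. COL11A1 was between 117 and 532 CPM and FMOD (fibromodulin) between 267 and 404 CPM. COL1A1 and COL3A1, fibrillar collagens of dedifferentiated chondrocytes and fibroblasts, reached 12070 to 26140 CPM and 31350 to 50990 CPM. The cells thus carried the label of chondrocytes with their defining collagen at or near the floor. Of the macrophage and leukocyte markers, 7 were tested, and their summed level was 14.9 to 16.9 CPM with resting MSC-CM and 13.5 to 19.5 CPM with TLR-MSC-CM. Most of that sum was CD68, which is a lysosomal protein of many cell types, and PTPRC, the pan-leukocyte marker, was between 0.0265 and 0.162 CPM. Of the endothelial markers, 5 were tested and summed to between 63.2 and 96.3 CPM, most of it PECAM1 (55.6 to 92.6 CPM). ERG was between 3.22 and 7.03 CPM and PLVAP between 0.287 and 1.19 CPM, while CDH5 did not reach the minimum count.

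Most of the variation lay between lines, and little of it between media. In a principal component analysis of the 9 conditioned-medium libraries, the first component held 71.1% of the variance. Of its spread, 99.3% lay between lines and 0.0987% between media. The 3 ORC libraries with conditioned medium stood apart from the 6 others on this component. In an F-test of the line term in the same edgeR fit, added after the data were seen, 5739 of 14304 genes (40.1%) had an adjusted p under 0.05. CRYBB3, a beta crystallin, had 1 count in each of the ORC libraries with resting and TLR-MSC-CM and 178 to 333 counts in the 4 others, which is 0.0404 and 0.0319 CPM (ORC), 7.46 and 6.23 CPM (AG1) and 6.08 and 6.15 CPM (PC). It was at 5.41 CPM with cytokines only and at 11.2 CPM with no addition, in the single libraries that the labels also name ORC.

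**Figure D1:**
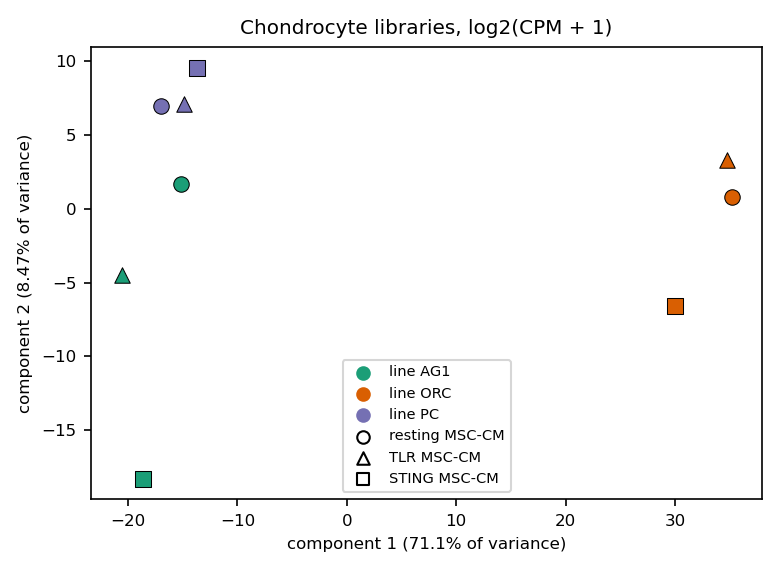
Principal components 1 and 2 of log2(CPM + 1) in the 9 chondrocyte libraries with conditioned medium, with the share of the variance on each axis. Colour gives the line and shape the medium; the line ORC libraries lie between 30.0 and 35.2 on the first component and all others between -20.6 and -13.7.

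Genes that respond to IL-1β and TNF-α differed widely between lines. CXCL8, the neutrophil chemokine interleukin 8, was at 1407 CPM with resting and 3356 CPM with TLR-MSC-CM in AG1, at 44.0 and 35.6 CPM in ORC, and at 1754 and 1152 CPM in PC. It was at 3276 CPM in the library with cytokines only and at 3.03 CPM with no addition. MMP1, the interstitial collagenase, was at 12320 and 16320 CPM (AG1), 3083 and 2705 CPM (ORC) and 13970 and 12070 CPM (PC). VCAM1, an adhesion molecule, was at 245 and 279 CPM (AG1), 19.1 and 28.0 CPM (ORC) and 259 and 247 CPM (PC). The ORC libraries were thus the lowest for all 3 genes with either medium. Across the cytokine and NF-kB list, 34 of 40 genes tested were lower in both ORC libraries than in all 4 others, where 3586 of all 14304 genes were. Whether the cytokine step was the same in the ORC cultures is not given in the sources used here, and its part in these values was not tested. The direction of the change with TLR-MSC-CM also differed between lines. The summed level of the list was 48240 CPM with resting and 62400 CPM with TLR-MSC-CM in AG1, 17080 and 18380 CPM for ORC, and 52010 and 46090 CPM for PC. Other lists went the other way: 14 of 15 contractile genes, 15 of 18 fibroblastic matrix genes and 78 of 100 cell cycle genes were higher in both ORC libraries than in all 4 others, where 3788 of all genes were. COL6A3, a chain of type VI collagen, was at 1945 and 1924 CPM in the ORC libraries and between 589 and 790 CPM in the other 4. Every comparison below was made within lines, and values without line ORC are given where they bear on a statement.

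**Figure D2:**
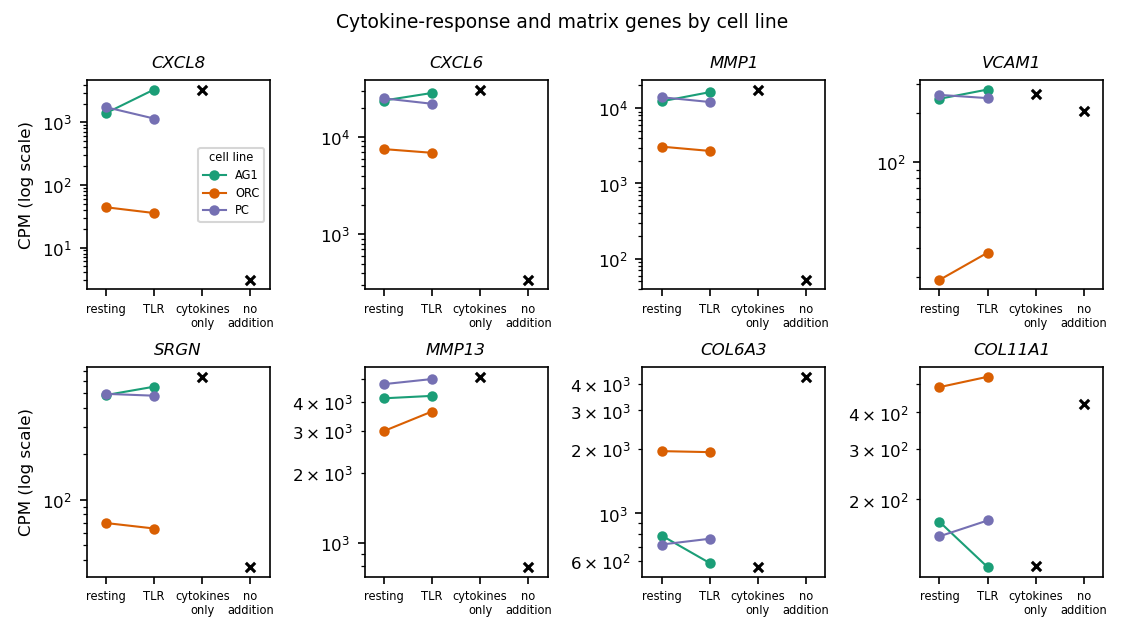
Levels in CPM (log scale) of cytokine-response and matrix genes with resting and TLR-MSC-CM, 1 trace per cell line, and in the single libraries with cytokines only and with no addition (crosses). The ORC traces lie far below those of AG1 and PC for CXCL8, CXCL6, MMP1, VCAM1 and SRGN and above them for COL6A3 and COL11A1.

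Between TLR-MSC-CM and resting MSC-CM, no gene passed the adjusted threshold in chondrocytes. In edgeR's quasi-likelihood test with the line as a block, 0 of 14304 genes (0%) had an adjusted p under 0.05, and the smallest adjusted p was 0.9999. An unadjusted p under 0.05 was found for 318 genes (2.22%), 158 with a higher fitted level (1.1%) and 160 with a lower one (1.12%). Of these, 293 had the same direction in 3 of 3 lines. Over all genes, 1635 (11.4%) were higher and 1620 (11.3%) lower with TLR-MSC-CM in 3 of 3 lines, and for 495 genes (3.46%) the 3 TLR-MSC-CM libraries did not overlap the 3 resting ones. With DESeq2 and the line term, 0 genes had an adjusted p under 0.05 and 142 an unadjusted one.

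The precision of the comparison was high for genes with a mean of at least 1 CPM, and lower for rarer ones. Over all 14304 genes tested, 11588 had a 95% interval of the fold change within 2-fold in either direction. For the 11545 genes with a mean of at least 1 CPM, the median absolute log2 fold change was 0.054 and the median standard error (SE) 0.084. The 95% interval of the fold change lay within 2-fold in either direction for 98.9% of them and within 1.5-fold for 90.9%. None of these genes had an absolute log2 fold change above 1. Among the 243 of them with an unadjusted p under 0.05, the median absolute log2 fold change was 0.22 and the largest 0.85.

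**Figure D3:**
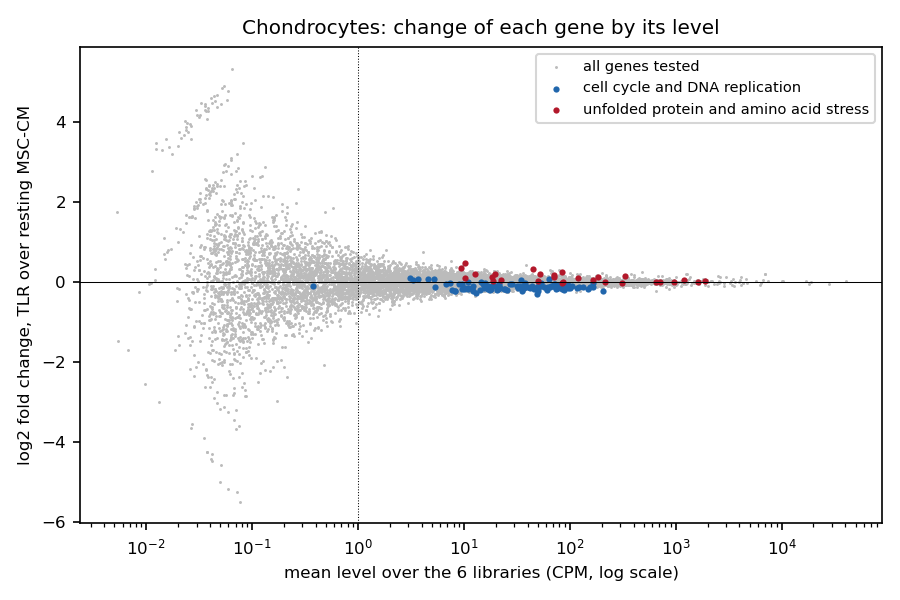
Fitted log2 fold change (TLR over resting MSC-CM) of each of the 14304 genes tested against its mean level over the 6 libraries in CPM (log scale); the dotted line marks 1 CPM. All genes past a log2 fold change of 1 in either direction lie left of that line, and most cell cycle genes (blue) lie just below 0.

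The study called genes in DESeq2 by an unadjusted p up to 0.05 together with an absolute log2 fold change from 2 upwards. With DESeq2 on the libraries fitted here, these thresholds took in 22 genes with the line term and 23 without it. The edgeR fit is another tool, so its genes are not the study's own set. In that fit the thresholds took in 43 genes (0.301%), 19 of them higher and 24 lower with TLR-MSC-CM. All of them were rare transcripts. None reached a mean of 1 CPM, and the highest count of any of them in any of the 6 libraries was 32. In 36 of the 43, 1 of the groups did not exceed 3 counts in any library. The study picked TLR3, FOXA1 and a crystallin gene from these same libraries, so their direction here is not independent evidence. TLR3, the receptor of poly I:C, had 0 counts in each of the 3 resting libraries and 5 (AG1), 5 (ORC) and 3 (PC) counts with TLR-MSC-CM. Against the floor of the resting group this was at least 1.31-fold higher. With STING-MSC-CM the same gene had 43 (AG1), 3 (ORC) and 9 (PC) counts. FOXA1, a forkhead transcription factor, had 5 (AG1), 0 (ORC) and 10 (PC) counts with resting MSC-CM and 0 with each TLR-MSC-CM, which is at least 1.81-fold lower, and line ORC was at 0 on both sides. CRYGB, a gamma crystallin, had 0 counts in the resting libraries and 1 (AG1), 2 (ORC) and 8 (PC) counts with TLR-MSC-CM. Its mean of 0.0822 CPM lay under the floor of 0.099 CPM, so no fold is given. Of the other crystallin genes, CRYAB, a small heat shock protein, was at 12.3 ± 0.325 CPM (SD, n = 3) with resting and 13.5 ± 0.655 CPM with TLR-MSC-CM. Its groups did not overlap, and its log2 fold change of 0.13 (SE 0.098) did not pass the test. The highest counts among the 43 belonged to ENSECAG00000037094, which has no symbol in the table and is named here after its values were seen. It had 15, 23 and 32 counts with resting MSC-CM of AG1, ORC and PC and 4, 4 and 14 counts with TLR-MSC-CM.

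Interferon-stimulated genes are the textbook readout of TLR3 activation. In chondrocytes with TLR-MSC-CM, 0 of 57 tested passed the adjusted threshold, and 1 (TLR3) had an unadjusted p under 0.05, beside 2.22% of all genes. The fitted value was higher for 38 of the 57, beside 51% of all genes. Of the 57, 12 were higher and 2 lower in 3 of 3 lines, beside 11.4% and 11.3% of all genes. The median log2 fold change was 0.078, beside 0.0024 for all genes, with line medians of 0.085 (AG1), 0 (ORC) and 0.024 (PC). It was 0.051 in the fit of the 6 libraries alone, and 0.035, 0.11 and 0.085 without line AG1, ORC or PC. Its sign was not the same in all fits that left out 1 library, and these fits kept the 3 STING-MSC-CM libraries. The median was -0.19 without the resting library of AG1, -0.046 when the TLR-MSC-CM library of PC was left out and 0.34 when that of AG1 was left out. It was 0.27 without the resting library of PC, 0.21 and 0.021 without the resting and the TLR-MSC-CM library of ORC, and 0.018 without the block. ISG15, a ubiquitin-like protein induced by interferon, was at 3.29 and 3.95 CPM (AG1), 3.96 and 3.12 CPM (ORC) and 2.21 and 2.68 CPM (PC) with resting and TLR-MSC-CM. The groups overlapped, and its log2 fold change of 0.12 had a 95% interval from -0.81 to 1.05. Within lines its log2 ratios were 0.26 (AG1), -0.33 (ORC) and 0.26 (PC). The spread behind the interval also included the STING-MSC-CM libraries, where ISG15 was at 28.9 CPM in AG1, 4.95 CPM in ORC and 3.41 CPM in PC. B2M, the light chain of MHC class I, was between 163 and 180 CPM with resting and between 173 and 198 CPM with TLR-MSC-CM. IFI6, an interferon-induced protein named here after its values were seen, was at 32.9 and 76.7 CPM in AG1, the only line in which it differed by more than 2-fold, and at 30.2 and 34.6 CPM (ORC) and 26.8 and 29.4 CPM (PC). CXCL10, a chemokine induced by interferon, had at most 5 counts in any of the 6 libraries, and TNFSF10, the death ligand TRAIL, at most 7.

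The libraries with STING-MSC-CM give a scale for these values, although both comparisons share the resting libraries. ISG15 was at 28.9 CPM with STING-MSC-CM in AG1, 4.95 CPM in ORC and 3.41 CPM in PC. B2M was at 442, 180 and 194 CPM in the same order. LGALS3BP, a secreted glycoprotein that interferon induces, was at 104, 1.47 and 1.09 CPM there, and at 1.26, 0.542 and 0.259 CPM with TLR-MSC-CM against 0.186, 0.323 and 0.358 CPM with resting MSC-CM. For these 3 genes the high value was found in 1 library, that with STING-MSC-CM in AG1. The median log2 fold change of the list was 0.96 for STING-MSC-CM, where TLR-MSC-CM gave 0.078 with the limits given above.

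Cell cycle and DNA replication genes formed the list with the most uniform small shift. None of the 100 tested passed the adjusted threshold. The fitted level was lower with TLR-MSC-CM for 92 of the 100, beside 7004 of all 14304 genes. Of the 100, 48 were lower in 3 of 3 lines while 0 were higher in 3 of 3, beside 11.3% and 11.4% over all genes. An unadjusted p under 0.05 was found for 18, all with a lower fitted value, beside 1.12% of all genes. The median log2 fold change was -0.13, with line medians of -0.13 (AG1), -0.094 (ORC) and -0.11 (PC). With STING-MSC-CM the list median was similar, at -0.11, so the shift was not particular to TLR-MSC-CM. Both comparisons share the resting libraries, so a shift with conditioned medium and one in the resting libraries cannot be told apart. The genes of the list share a regulation in dividing cells, so their counts are not independent, and no test of the list was made. In bulk RNA, fewer dividing cells and less of these transcripts per cell cannot be told apart. Fitted values with TLR-MSC-CM stayed lower for 77 to 94 of the 100 genes when any 1 library or line was left out. Their median ran from -0.16 to -0.086. The number with an unadjusted p under 0.05 fell to 3 when the TLR-MSC-CM library of AG1 was left out, to 11 without the resting library of AG1 or that of PC, and to 8 without line AG1. It was 17 without line ORC, and 0 without the line block.

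ANLN, the actin-binding protein anillin of the cleavage furrow, was at 201 CPM with resting and 154 CPM with TLR-MSC-CM in AG1, 253 and 221 CPM for ORC, and 202 and 193 CPM for PC. It was lower in 3 of 3 lines, with groups that overlapped because lines differed, and its log2 fold change was -0.21 (SE 0.065). KNL1, a kinetochore scaffold, was at 44.2 and 31.3 CPM (AG1), 66.5 and 55.7 CPM (ORC) and 49.4 and 44.6 CPM (PC), with a log2 fold change of -0.29 (SE 0.093). CKS1B, a regulatory subunit of cyclin-dependent kinases that is not on the list, was at 14.3 and 11.3 CPM (AG1), 14.3 and 12.2 CPM (ORC) and 14.2 and 10.8 CPM (PC). Its groups did not overlap, and its log2 fold change was -0.32 (SE 0.095). TOPBP1 and FANCD2, which act in the DNA damage response and in replication fork protection, had log2 fold changes of -0.17 (SE 0.056) and -0.20 (SE 0.067). The other members with an unadjusted p under 0.05 came from several steps of the cycle: UBE2C and CDC20 of the anaphase-promoting complex, CCNB1, CCNB2 and CDC25C of mitotic entry, the kinesins KIF11, KIF2C and CENPE, AURKB, HMMR, ECT2, ASPM, CENPK and NUF2 of the spindle, cleavage and kinetochore, and MCM6 and CDT1 of replication licensing. NUF2 was lower in 2 of 3 lines and the others in 3 of 3. PRC1, one of the list's most abundant genes, was at 172 ± 31.5 CPM with resting and 159 ± 39.3 CPM with TLR-MSC-CM (SD, n = 3), with a log2 fold change of -0.13 (SE 0.067). With STING-MSC-CM the log2 fold changes of ANLN, KNL1, CKS1B, TOPBP1, FANCD2 and PRC1 were -0.15, -0.20, -0.21, -0.15, -0.16 and -0.17.

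The summed level of the list was 4360 and 3834 CPM (AG1), 5534 and 5204 CPM (ORC) and 4431 and 4164 CPM (PC) with resting and TLR-MSC-CM. It was 3480 CPM in the single library with cytokines only, lower than in any of the 6 libraries, and 4786 CPM in that with no addition. The summed level of the cytokine and NF-kB list is given above, and it was higher with TLR-MSC-CM in AG1 and ORC and lower in PC. Its part in the cell cycle values was not tested. In the other joint cells the same list had line medians of 0.013 (AG1), -0.74 (ORC) and -0.17 (PC) in synoviocytes and 0.51, -0.022 and 0.23 in macrophages.

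**Figure D4:**
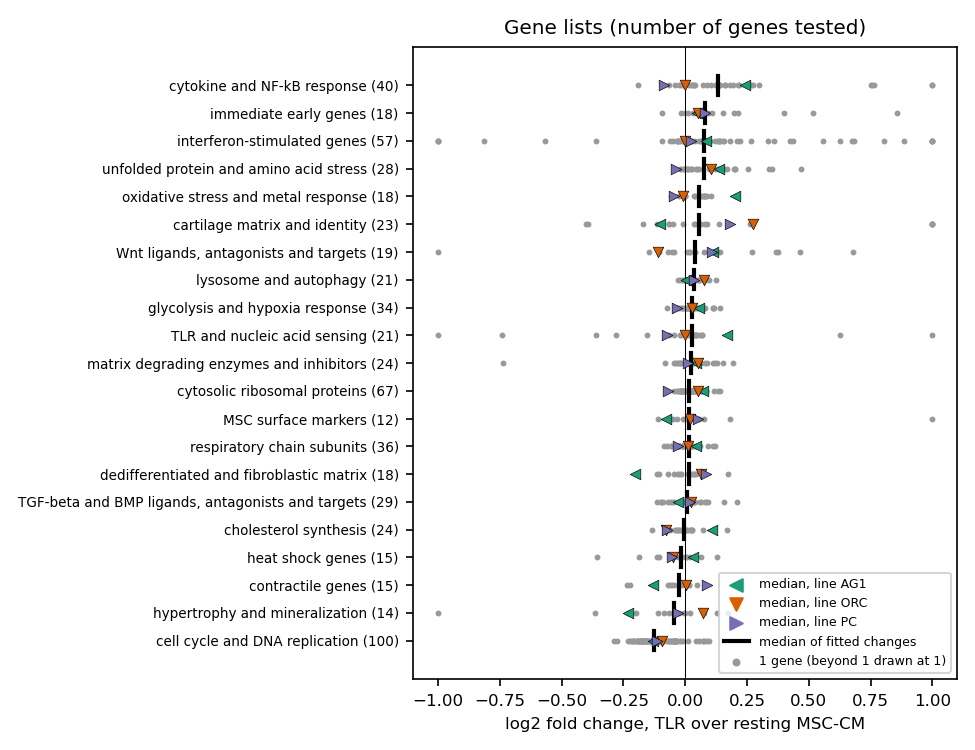
Fitted log2 fold changes (TLR over resting MSC-CM) of the members of each gene list with at least 12 genes tested (grey points, drawn at the edge where beyond 1), their median (black bar) and the median within each line (triangles). The 3 line medians lie together below 0 for cell cycle and DNA replication, and on both sides of 0 for the cytokine, unfolded protein and cartilage lists.

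Genes of the unfolded protein response and of amino acid stress leaned the other way, again without an adjusted call (0 of 28). These genes are driven by ATF4 and XBP1, transcription factors that respond to misfolded protein or to lack of amino acids. An unadjusted p under 0.05 was found for 7 of the 28, all higher in 3 of 3 lines, beside 1.1% of all genes with a higher fitted value. The 7 were TRIB3, SLC7A5, HERPUD1, ATF4, CHAC1, PSAT1 and XBP1. TRIB3, a pseudokinase induced by ATF4, was at 6.58 and 8.71 CPM (AG1), 11.6 and 19.3 CPM (ORC) and 7.19 and 8.35 CPM (PC), with a log2 fold change of 0.47 (SE 0.12). SLC7A5, the light chain of the large neutral amino acid transporter, was at 61.5 and 75.1 CPM (AG1), 97.7 and 131 CPM (ORC) and 67.2 and 69.4 CPM (PC), with a log2 fold change of 0.25 (SE 0.087). Its heavy chain SLC3A2 was at 112 and 134 CPM (AG1), 104 and 132 CPM (ORC) and 110.1 and 112.2 CPM (PC). The groups of SLC3A2 did not overlap, and its log2 fold change was 0.21 (SE 0.064). The abundant chaperones of the list, CALR and HSP90B1, were between 1690 and 2115 CPM and between 1476 and 1806 CPM, with overlapping groups.

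The amino acid stress values rested on AG1 and ORC more than on PC. The median over the list was 0.076, with line medians of 0.14 (AG1), 0.10 (ORC) and -0.038 (PC). The number of the 28 genes with an unadjusted p under 0.05 was 1 without line ORC or without its TLR-MSC-CM library, 2 without the resting library of ORC or of AG1, and 10 without line PC or its TLR-MSC-CM library. Without the TLR-MSC-CM library of AG1, 13 of the 28 were fitted lower in place of 5. In the fit with all libraries, 7004 of all 14304 genes were fitted lower. TRIB3 was at 36.4 CPM and SLC7A5 at 146 CPM in chondrocytes with no addition, higher than in any of the 6 libraries compared.

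The gene with the smallest p was EGR1, an immediate early transcription factor of growth factor and mechanical signals. It was at 5.36 and 5.88 CPM (AG1), 6.98 and 11.6 CPM (ORC) and 6.25 and 9.81 CPM (PC), higher in 3 of 3 lines by a log2 fold change of 0.52 (SE 0.13), and its groups overlapped. It was at 2.30 CPM with cytokines only and at 8.70 CPM with no addition. With STING-MSC-CM it was at 7.59, 12.8 and 11.3 CPM in the same order of lines. Of the 18 immediate early genes tested, 15 had a higher fitted value, beside 51% of all genes, and 2 (EGR1 and KLF4) an unadjusted p under 0.05, both higher, beside 1.1%. KLF4, a Krüppel-like factor, had a log2 fold change of 0.21 (SE 0.098). TRPV4, a calcium channel that chondrocytes use to sense osmotic and mechanical load, was at 15.3 and 19.3 CPM (AG1), 12.1 and 14.5 CPM (ORC) and 13.7 and 17.9 CPM (PC), a log2 fold change of 0.33 (SE 0.090).

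**Figure D5:**
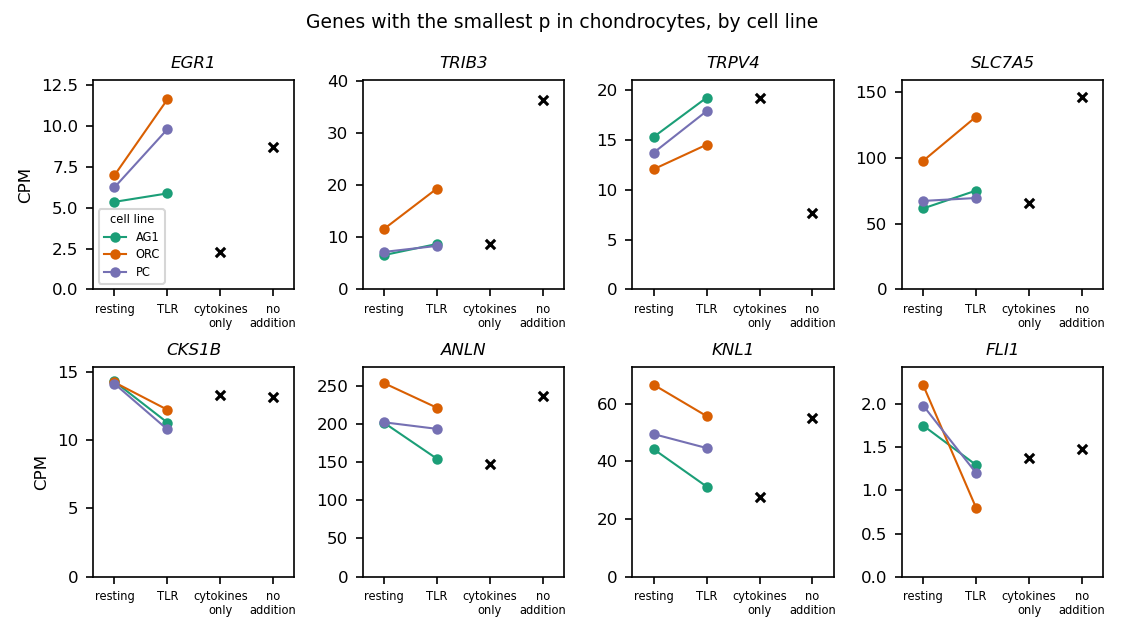
Levels in CPM of EGR1, TRIB3, TRPV4, SLC7A5, CKS1B, ANLN, KNL1 and FLI1 with resting and TLR-MSC-CM, 1 trace per cell line, and in the single libraries with cytokines only and with no addition (crosses). All traces of the upper row rise and all traces of the lower row fall, and the groups do not overlap for CKS1B and FLI1; none of these genes passed the adjusted threshold.

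The remaining genes with the smallest p, chosen as those with 3 of 3 lines in 1 direction and a mean of at least 1 CPM, did not pass the adjusted threshold either. Among those with higher values, GALC, the lysosomal galactosylceramidase, had a log2 fold change of 0.30 (SE 0.096) and PIK3CD, a catalytic subunit of phosphoinositide 3-kinase, one of 0.20 (SE 0.064). TRMT10C, a subunit of mitochondrial RNase P, was at 5.79 ± 0.477 CPM with resting and 7.38 ± 0.360 CPM with TLR-MSC-CM (SD, n = 3), and its groups did not overlap. PPIF, the mitochondrial cyclophilin D of the permeability transition pore, was at 2.90 ± 0.684 and 4.16 ± 0.556 CPM, and MYO15A, an unconventional myosin, at 1.35 ± 0.510 and 2.12 ± 0.494 CPM. NAALADL1 and C1orf122 had log2 fold changes of 0.39 (SE 0.12) and 0.28 (SE 0.094).

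Among those with lower values, FLI1, an ETS transcription factor, had the largest difference. It was at 1.75 and 1.30 CPM (AG1), 2.22 and 0.797 CPM (ORC) and 1.98 and 1.20 CPM (PC), a log2 fold change of -0.85 (SE 0.27), and its groups did not overlap. CACNB2, a subunit of voltage-gated calcium channels, and KCNJ15, an inward rectifier potassium channel, also had groups that did not overlap, with log2 fold changes of -0.43 (SE 0.13) and -0.43 (SE 0.14). PCDH18, a protocadherin, was at 20.7 and 17.2 CPM (AG1), 41.5 and 33.0 CPM (ORC) and 23.6 and 21.7 CPM (PC). MAP1B, a microtubule-associated protein, had a log2 fold change of -0.22 (SE 0.068). Its PC libraries were at 130 and 129 CPM, so that the difference lay in AG1 (129 and 97.0 CPM) and ORC (148 and 126 CPM). ZSWIM1 had a log2 fold change of -0.40 (SE 0.12).

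No cartilage matrix gene passed the adjusted threshold (0 of 23 tested). Among them 1 (EPYC) had an unadjusted p under 0.05, beside 2.22% of all genes. Their median log2 fold change was 0.055, with line medians of -0.10 (AG1), 0.28 (ORC) and 0.18 (PC). It was -0.040 without the TLR-MSC-CM library of ORC, -0.030 without line ORC, 0.15 without the TLR-MSC-CM library of AG1 and 0.20 without line AG1. COMP, the cartilage oligomeric matrix protein, was at 26.9 and 25.7 CPM (AG1), 15.9 and 19.9 CPM (ORC) and 23.2 and 28.2 CPM (PC), and its log2 fold change of 0.18 (SE 0.086) did not pass. EPYC, a small leucine-rich proteoglycan, was at 0.402 ± 0.363 CPM with resting and 0.832 ± 0.773 CPM with TLR-MSC-CM (SD, n = 3). The fibroblastic matrix list (18 genes) had a median of 0.014, with COL1A1 at 13380 and 12070 CPM (AG1), 24180 and 26140 CPM (ORC) and 12420 and 13460 CPM (PC). Among the hypertrophy and mineralization genes (14 tested, 0 with an unadjusted p under 0.05), MMP13, the collagenase of hypertrophic and osteoarthritic chondrocytes, was at 4148 and 4248 CPM (AG1), 3007 and 3644 CPM (ORC) and 4766 and 5011 CPM (PC). MMP13 was higher in 3 of 3 lines by a log2 fold change of 0.13, with a 95% interval from -0.10 to 0.36.

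Matrix-degrading enzymes and their inhibitors (24 tested) and cytokine and NF-kB genes (40 tested) had 0 members with an unadjusted p under 0.05. The fitted value was higher for 33 of the 40 cytokine and NF-kB genes, beside 51% of all genes. Their median log2 fold change was 0.13, with line medians of 0.24 (AG1), 0 (ORC) and -0.084 (PC). This median ran from -0.034 to 0.21 when a library or line was left out. MMP2, a gelatinase, was at 2927 and 3013 CPM (AG1), 1514 and 1862 CPM (ORC) and 2718 and 2958 CPM (PC), a log2 fold change of 0.15 (SE 0.078). MMP12, the macrophage elastase, followed the line, at 7935 and 11630 CPM (AG1), 2855 and 3303 CPM (ORC) and 8732 and 7735 CPM (PC). CXCL8, whose values are given above, had a log2 fold change of 0.21 with a 95% interval from -0.82 to 1.24, since AG1 was higher and ORC and PC were lower with TLR-MSC-CM; without line AG1 it was -0.51. SAA1, an acute phase protein, was at 7217 and 8169 CPM (AG1), 4687 and 6337 CPM (ORC) and 7830 and 7654 CPM (PC), with a log2 fold change of 0.19 (SE 0.090). VCAM1 had one of 0.18 (SE 0.11). IL18, a cytokine of the IL-1 family, had 4 and 8 counts (AG1), 3 and 3 counts (ORC) and 2 and 6 counts (PC), so that a difference in its transcript was not detectable at this depth.

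Genes of the factors the study names as secreted by MSC were also read in the chondrocytes. SERPING1, the C1 esterase inhibitor, was at 37.1 and 34.2 CPM (AG1), 21.3 and 27.8 CPM (ORC) and 32.9 and 38.9 CPM (PC), a log2 fold change of 0.17 with a 95% interval from -0.045 to 0.39. SRGN, the proteoglycan serglycin, was at 487 and 553 CPM (AG1), 70.1 and 64.5 CPM (ORC) and 496 and 482 CPM (PC). ITGBL1, an integrin-like secreted protein, was between 81.2 and 143 CPM, and NOTUM, an enzyme that inactivates Wnt ligands, between 15.8 and 35.9 CPM, with overlapping groups in each. C2, a complement component, had between 3 and 21 counts.

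The other lists held few or no members with an unadjusted p under 0.05, and none with an adjusted call, beside 2.22% of all genes with an unadjusted p under 0.05 (1.1% with a higher fitted value). Among Wnt genes, 2 of 19 had one, both higher in 3 of 3 lines: WNT11, a noncanonical Wnt ligand (log2 fold change 0.47, SE 0.18), and ZNRF3, a ubiquitin ligase that removes Wnt receptors (0.37, SE 0.16). Cholesterol synthesis had 1 of 24 (PMVK, 0.17, SE 0.075) and glycolysis and hypoxia 1 of 34 (ADM, the vasodilator adrenomedullin, 0.14, SE 0.064). Cytosolic ribosomal proteins (67 tested, median 0.017), respiratory chain subunits (36, 0.014), TGF-beta and BMP genes (29, 0.0061), lysosome and autophagy (21, 0.034), contractile genes (15, -0.024) and heat shock genes (15, -0.017) had none. HSPH1, a heat shock protein of the HSP110 family, had groups that did not overlap, at 81.2 ± 2.51 CPM with resting and 75.1 ± 3.30 CPM with TLR-MSC-CM (SD, n = 3), and its log2 fold change of -0.11 (SE 0.058) did not pass. Nucleic acid sensing genes (21 tested) held TLR3 as their only member with an unadjusted p under 0.05.

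An interaction term for each gene asked whether the change with TLR-MSC-CM differed between chondrocytes and the other joint cells, over the 27 libraries of the 3 cell types. The labels give the macrophages IL-1β and TNF-α at 10 ng/mL and the chondrocytes and synoviocytes 20 ng/mL, so for macrophages the cell type and the cytokine dose cannot be told apart. In edgeR, 0 of 16584 genes (0%) differed from synoviocytes and 0 (0%) from macrophages at an adjusted p under 0.05, while 559 and 879 had an unadjusted p under 0.05. With DESeq2 and the line term 5 genes differed from synoviocytes and 11 from macrophages. The 5 (ABCA13, GCM2, NPVF, RTN4RL2 and a gene listed by identifier, all chosen with their values known) had more than 3 counts in at most 2 of the 27 libraries. Among the 11, NECTIN3, CHSY3, S100A12 and ASPM had more than 3 counts in at least 23 libraries, and these were chosen with their values known as well. For these 4 the larger fitted change was that in the macrophages. NECTIN3, a cell adhesion molecule, had a log2 fold change of -0.048 in chondrocytes and 1.20 in macrophages, and CHSY3, a chondroitin synthase, -0.017 and -1.20. ASPM, a spindle pole protein of the cell cycle list, had -0.17 in chondrocytes and 0.49 in macrophages. The difference was -0.66 in DESeq2 (adjusted p = 0.0221), and edgeR did not call it over the 3 lines (adjusted p = 0.44). Without line ORC, edgeR's interaction test called it at -0.83 (adjusted p = 0.0487).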

How the data were processed

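RNA was measured by bulk sequencing. As the study's methods and the submitters' processing notes state, the authors used Cutadapt 1.12 for trimming, STAR for alignment to EquCab3.0 and HTSeq 0.11.0 for counting on Ensembl genes, and retained those that code for protein. The deposited values are these raw counts, without normalization, for 20881 genes, 3970 of them listed by Ensembl identifier. In the table, the 31 largest values are written to 3 digits. The strand setting is not given in the sources used here, so reads of overlapping antisense genes cannot be told apart. No reference for the build of the files was used here, and coordinates are not given. The table of MSC libraries was not used here.

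Counts were scaled by TMM and compared with edgeR 4.0.16 (glmQLFit and glmQLFTest) in R 4.3.3 over the 9 chondrocyte libraries with conditioned medium, with the cell line name of the labels (AG1, ORC or PC) as a block and 4 residual degrees of freedom. Genes with at least 10 counts in total were tested, a filter the study also used, and p-values were adjusted by Benjamini-Hochberg over all of them. CPM are TMM-scaled. Fold changes used a prior count of 0.125. Standard errors and 95% intervals are Wald values on the quasi-likelihood scale, and "same direction" compares CPM within lines. Line medians of lists used log2(CPM + 0.1). The script was tested on simulated data. The libraries were paired by the line name of the labels. Deviations from the medium means correlated at 0.57 to 0.89 between libraries of the same line and at -0.77 to 0.61 (median -0.65) between lines. Deviations from a shared mean pull the values between lines down by construction. All negative values were of ORC with another line. Between AG1 and PC the values were 0.32 to 0.61, overlapping those within AG1 and within PC (0.57 to 0.69). These values thus set ORC apart and say little on the pairing of AG1 and PC.

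Genes were named by rule: up to 12 per direction with the smallest p, the same direction in 3 lines and a mean of at least 1 CPM, genes the study names, and 2 to 4 members of each of 29 lists with the highest level or the smallest p. Names outside the rule are marked as such, and some genes the rule names are not reported here. The comparison, its members and the lists were chosen with earlier results of these data known. Lists are described by counts and medians, with no set test. The alternatives were other normalization, filters, libraries in the fit, prior count, DESeq2 1.42.0, no block, and leaving out libraries or lines. The labels do not state separate animals for the replicates, so p-values measure only the spread between these libraries, which may be technical.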

Additional observations from a re-analysis of the deposited data

Results flagged for a closer look

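For 2 gene lists the median change with TLR-MSC-CM lay on one side of 0 in all 3 lines of chondrocytes and on the other side in all 3 lines of macrophages. Every list with genes tested was compared in this way with synoviocytes and with macrophages. Such cases can arise by chance among that many comparisons, which was not tested. The difference between the cell types was not tested for the lists, and edgeR's interaction test called 0 of their genes. For matrix-degrading enzymes and their inhibitors the line medians of the log2 ratio were 0.045 (AG1), 0.051 (ORC) and 0.0095 (PC) in chondrocytes, with a middle value of 0.0454, and -0.43, -0.048 and -0.21 in macrophages. For lysosome and autophagy genes they were 0.0050, 0.076 and 0.0354 in chondrocytes and -0.19, -0.082 and -0.045 in macrophages.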

How the results depend on the processing

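The count of genes with an adjusted p under 0.05 was 0 under every alternative run, with the smallest adjusted p at 0.0954 (without the resting library of PC) and 0.126 (DESeq2 with the line term). The count past the study's thresholds was 43 and became 20 with no filter on low counts, 2 with filterByExpr, 22 and 23 with DESeq2 with and without the line, 0 with a prior count of 2, and 27 to 49 when a library or line was left out. The count with an unadjusted p under 0.05 was 318, and 209 to 441 when a library or line was left out. Without the replicate block it was 80 with edgeR and 55 with DESeq2, and with DESeq2 and the block 142. The block was used because the labels pair the libraries by line name, and without it the adjusted count was 0 as well. In the cell cycle list an unadjusted p under 0.05 was found for 18 genes, for 28 in the fit of the 6 libraries alone, for 0 without the block in either tool, and for 3 to 26 with a library or line left out. In the amino acid stress list it was found for 7 genes, for 0 without the block in either tool, and for 1 to 10 with a library or line left out, where 1 to 13 of its genes were fitted lower. The difference from synoviocytes was called for 5 genes and that from macrophages for 11 with DESeq2 and the line term. Leaving out a library or line in edgeR gave 0 to 8 for macrophages (8 without ORC, 3 without AG1) and 0 for synoviocytes. Of the 8, named here after their values were seen, CENPI, HMGB2, HJURP, CDCA3 and ASPM had the lower change in chondrocytes. STC1, SLC46A2 and VEGFC had the higher one. CXCL8 and ISG15 changed direction among the genes whose fold change is given: CXCL8 ran from -0.66 to 0.91 and ISG15 from -0.48 to 0.59 with a library or line left out. The other 38 such genes kept their direction. The causes of these changes were not tested. A gene at a few counts per library, such as IL18, CXCL10 or TLR3, could not be measured more precisely at this depth.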

Other observations

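Markers of other cells than chondrocytes were measured as well. Of the synovial lining and sublining markers 5 were tested, with summed levels of 74.2 to 115 CPM with resting and 69.0 to 109.5 CPM with TLR-MSC-CM, nearly all of it podoplanin (PDPN, 63.3 to 106 CPM). All 5 had a lower fitted value with TLR-MSC-CM, where 7004 of all 14304 genes had, 1 was lower in 3 of 3 lines, and 0 had an unadjusted p under 0.05. Their median log2 fold change was -0.27, with line medians of -0.14 (AG1), -0.0089 (ORC) and -0.60 (PC), and 3 of the 5 reached a mean of 1 CPM. The 4 epithelial markers tested summed to 1.38 to 2.30 CPM with resting and 1.57 to 1.85 CPM with TLR-MSC-CM, and the 6 muscle and fat markers to 2.25 to 5.89 CPM and 2.34 to 6.88 CPM. MSC surface markers (12 tested), which chondrocytes in culture also carry, summed to 4976 to 5377 CPM and 5028 to 5409 CPM, led by the integrin ITGB1 and the hyaluronan receptor CD44. Oxidative stress and metal response genes (18 tested) had a median log2 fold change of 0.057, with line medians of 0.20 (AG1), -0.0078 (ORC) and -0.045 (PC), and 0 members with an unadjusted p under 0.05. The genes of the mitochondrial genome are listed at 0 in the 6 libraries.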
